A study of Mus musculus with 8 samples.

Results

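The 7 genes described here encode the cyclin-dependent kinase (CDK) inhibitors of the mouse, proteins that bind CDKs or their cyclin complexes and hold cells back from dividing. They were taken by gene symbol from 50462 gene identifiers in an RNA-seq count table of knee cartilage, and all 7 were found. Each library was made from the medial knee cartilage of 1 wild-type male C57BL/6J mouse. The naive group had 4 mice at day 0, without surgery and aged 11 weeks. The DMM group had 4 mice at day 42 after destabilisation of the medial meniscus, aged 17 weeks. In this surgical model of osteoarthritis after joint injury, the anchoring ligament of the medial meniscus is cut, so that load on the medial cartilage becomes abnormal. Without a sham-operated group in the comparison, effects of the destabilisation, of the operation itself and of being 6 weeks older cannot be told apart.

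CDK inhibitors fall into 2 families. The 3 Cip/Kip genes, Cdkn1a (p21), Cdkn1b (p27) and Cdkn1c (p57), encode proteins that bind complexes of several CDKs with their cyclins. The 4 INK4 genes, Cdkn2a, Cdkn2b (p15), Cdkn2c (p18) and Cdkn2d (p19), encode proteins that bind CDK4 and CDK6 and keep D-type cyclins from activating them. Both routes keep the retinoblastoma protein active, which holds E2F transcription factors silent. In cartilage, p57 is known for its part in the cell cycle exit of growth plate chondrocytes, and p16INK4a and p21 are widely used as markers of senescence, a lasting cell cycle arrest. Much of the control of p27 lies in protein degradation, which RNA levels do not show.

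The promoters of the members whose changes the results turn on are shown first. Sequences are from RefSeq (assembly GRCm38.p6), cover 250 bases before to 50 after an annotated start, and are written 5′ to 3′ on the transcribed strand. An entry was found for 6 of the 7 members, and Cdkn1c had none. Cdkn1a has an upstream start (chr17:29090729-29091028, plus strand) and a downstream start (chr17:29093519-29093818, plus strand). Cdkn2d has its start on the minus strand (chr9:21291160-21291459). Cdkn2a is shown because its 2 starts on the minus strand serve different products: the p19ARF start lies upstream (chr4:89294570-89294869) and the p16INK4a start downstream (chr4:89282143-89282442). Capitals mark the p53 motif in the first window and GC boxes (GGGCGG on either strand, the motif of SP1-like factors) in the others.

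Cdkn1a upstream start: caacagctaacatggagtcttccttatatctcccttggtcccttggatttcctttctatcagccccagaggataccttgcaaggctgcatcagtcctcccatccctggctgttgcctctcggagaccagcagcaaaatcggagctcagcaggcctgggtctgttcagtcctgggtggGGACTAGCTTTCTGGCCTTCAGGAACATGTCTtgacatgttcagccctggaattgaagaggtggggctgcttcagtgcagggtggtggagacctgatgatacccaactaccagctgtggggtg

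Cdkn1a downstream start: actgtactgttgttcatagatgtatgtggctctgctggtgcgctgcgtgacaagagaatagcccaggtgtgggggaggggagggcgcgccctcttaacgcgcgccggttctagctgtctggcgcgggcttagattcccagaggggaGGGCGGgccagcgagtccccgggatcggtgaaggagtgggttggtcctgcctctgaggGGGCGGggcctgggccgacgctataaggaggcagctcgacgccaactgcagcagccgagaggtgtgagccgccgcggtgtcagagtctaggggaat

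Cdkn2d: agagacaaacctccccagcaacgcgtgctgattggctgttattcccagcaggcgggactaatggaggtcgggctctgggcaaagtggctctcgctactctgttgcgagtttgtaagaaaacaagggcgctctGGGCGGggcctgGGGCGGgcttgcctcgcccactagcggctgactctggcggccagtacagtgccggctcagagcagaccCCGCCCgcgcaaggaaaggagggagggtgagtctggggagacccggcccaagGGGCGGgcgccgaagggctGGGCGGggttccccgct

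Cdkn2a upstream start: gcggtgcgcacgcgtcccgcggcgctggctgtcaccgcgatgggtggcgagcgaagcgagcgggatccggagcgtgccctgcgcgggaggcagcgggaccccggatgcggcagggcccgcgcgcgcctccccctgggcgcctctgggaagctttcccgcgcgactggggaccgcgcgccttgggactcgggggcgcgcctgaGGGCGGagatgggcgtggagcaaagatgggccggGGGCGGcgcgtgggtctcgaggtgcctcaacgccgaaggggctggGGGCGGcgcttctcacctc

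Cdkn2a downstream start: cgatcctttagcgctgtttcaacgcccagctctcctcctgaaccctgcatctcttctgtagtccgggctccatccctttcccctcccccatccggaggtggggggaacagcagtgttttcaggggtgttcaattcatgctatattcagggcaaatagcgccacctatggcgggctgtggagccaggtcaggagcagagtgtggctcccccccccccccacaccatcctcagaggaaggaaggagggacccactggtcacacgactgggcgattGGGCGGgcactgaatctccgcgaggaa

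The p53 motif, 2 decamers of the p53 consensus with a spacer of at most 13 bases, was found in the upstream Cdkn1a window, beginning at base 178. It occurred in 24 of the 32851 RefSeq windows (0.0731%). Only exact matches to the consensus were marked. The decamer directly after the capitals departs from the consensus in its first letter and stayed in lower case, so the capitals need not mark the bases that p53 uses. GC boxes were common, in 35.7% of all windows, and numbered 5 in the Cdkn2d window and 2 in the downstream Cdkn1a window. The upstream and downstream Cdkn2a windows held 3 and 1 GC boxes and were 77.0% and 60.3% GC, against a median of 52.7% over all windows. Each also held 1 match to the E2F motif (TTTNNCGC on either strand), which 5.17% of all windows had. No other member's window had a match to the p53 or E2F motif. A match describes the letters of a window and is not a binding site.

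Total estimated counts were 12479443 to 16548002 per library. Of the 7 members, 5 had enough counts for an adjusted p, and Cdkn2a and Cdkn2b did not. Cdkn1a and Cdkn1c were higher in DMM cartilage, Cdkn2d was lower, and Cdkn1b and Cdkn2c were not called. To be called, a gene had to change by at least 1.5-fold with an adjusted p (Benjamini-Hochberg, DESeq2, over all 17760 genes tested) of at most 0.05. Over all genes tested, 13.7% were called, 7.75% higher and 5.92% lower, and 2 of the 5 members tested were higher and 1 was lower. Scaling to total counts instead of to size factors turned the split of all calls from 1377 higher and 1052 lower to 2030 higher and 489 lower, and shifted the median log2 fold change of all genes from -0.02 to 0.14. The same 3 members were called under both scalings. Normalised counts, used below, are estimated counts divided by the library's DESeq2 size factor. The RNA is from whole dissected tissue, so fewer cells of a type and less RNA per cell cannot be told apart.

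**Figure D1:**
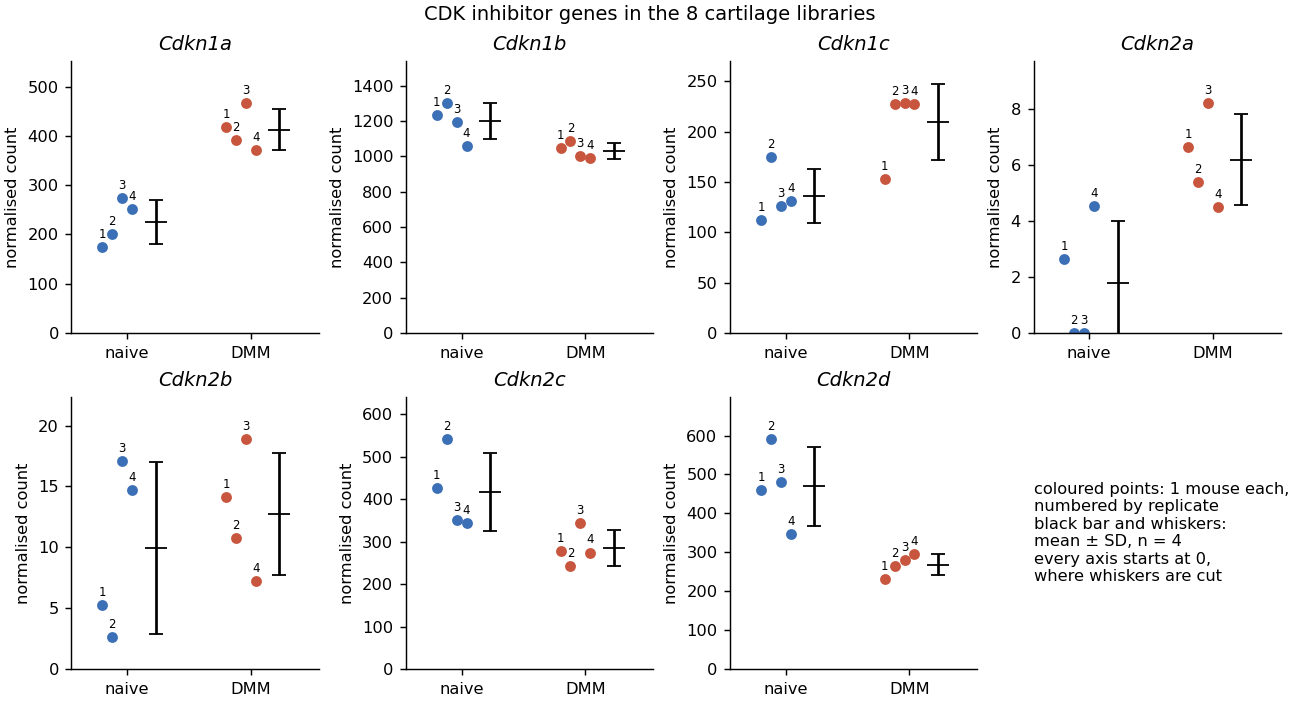
Normalised counts of the 7 CDK inhibitor genes (y axes, each starting at 0) in the 4 naive (blue) and 4 DMM (red) mice, numbered by replicate, with mean ± SD in black (n = 4). The groups do not overlap for Cdkn1a, Cdkn2c and Cdkn2d, and Cdkn2a and Cdkn2b stay at 18.9 normalised counts or less.

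Cdkn1a encodes p21, which binds both CDK complexes and the replication clamp PCNA and is the best-known transcriptional target of p53. Its normalised counts were 174, 201, 273 and 251 in naive mice 1 to 4 and 419, 392, 468 and 372 in DMM mice 1 to 4. Every DMM mouse lay above every naive mouse, which was so for either direction in 22.2% of all genes tested. The mean rose from 225 ± 45.2 (SD, n = 4) to 413 ± 41.4 (SD, n = 4), a 1.84-fold change (log2 fold change 0.88, SE 0.17, 95% interval 0.55 to 1.21, adjusted p = 6.72e-06). The call was kept when each of the 8 libraries was left out in turn. Cdkn1a lies at chr17:29090976-29100727 on the plus strand (GENCODE vM21, GRCm38), and 9.78% of the 31-base words of its transcripts occur in other annotated genes, chiefly an antisense gene that overlaps it. Whether reads were assigned by strand was not stated, and the antisense gene has no row in the table.

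Cdkn1b encodes p27, which restrains CDK2 complexes in resting cells. Its normalised counts were 1236, 1305, 1194 and 1060.1 in naive mice 1 to 4 and 1048, 1088, 1003 and 991 in DMM mice 1 to 4. The ranges overlapped, since naive mouse 4 lay within the DMM range. The means were 1199 ± 103.2 and 1032 ± 44.5 (SD, n = 4 each), and the log2 fold change of -0.22 (SE 0.10, 95% interval -0.41 to -0.02) did not pass the threshold (adjusted p = 0.105). Cdkn1b was the member with the most counts in every library. It lies at chr6:134920401-134925513 on the plus strand and shares 0.087% of its words with other genes.

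Cdkn1c encodes p57 and is an imprinted gene expressed from the maternal allele. Its normalised counts were 113, 174, 126 and 132 in naive mice 1 to 4 and 153, 228, 229 and 227 in DMM mice 1 to 4. DMM mice 2 to 4 were nearly equal and above every naive mouse, whereas DMM mouse 1 lay below naive mouse 2. The mean rose from 136 ± 26.6 to 209 ± 37.7 (SD, n = 4 each), a 1.54-fold change (log2 fold change 0.62, SE 0.20, 95% interval 0.23 to 1.02, adjusted p = 0.0119). This change lay just past the 1.5-fold threshold, and the call was kept in 3 of 8 fits without 1 library, with log2 fold changes of 0.54 to 0.76 over all 8. It was lost without naive 1 or naive 3 and without DMM 2, DMM 3 or DMM 4, and without DMM 1 the log2 fold change was 0.75. Cdkn1c lies at chr7:143458339-143461050 on the minus strand, and 27.2% of its words also occur in the antisense gene Gm44732, which overlaps it by 892 bases. Gm44732 had 5.28, 10.6, 9.63 and 43.1 normalised counts in naive mice and 23.2, 22.6, 26.3 and 16.2 in DMM mice. These were below those of Cdkn1c in each library, and the share of reads from either strand in the Cdkn1c counts was not tested.

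Cdkn2d encodes p19INK4d, an inhibitor of CDK4 and CDK6. Its normalised counts were 459, 592, 480.5 and 346 in naive mice 1 to 4 and 231, 264, 281 and 296 in DMM mice 1 to 4. All DMM mice lay below all naive mice, and the naive mice were the more widely spread. The mean fell from 469 ± 101 to 268 ± 27.7 (SD, n = 4 each), a ratio of 0.572 (log2 fold change -0.81, SE 0.17, 95% interval -1.15 to -0.47, adjusted p = 8.22e-05). The call held whichever of the 8 libraries was left out. Cdkn2d lies at chr9:21288410-21291407 on the minus strand, and none of its words occur in another annotated gene.

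Cdkn2c encodes p18INK4c, which also binds CDK4 and CDK6. Its normalised counts were 426, 543, 352 and 345 in naive mice 1 to 4 and 278, 242, 344 and 274 in DMM mice 1 to 4. The groups did not overlap, but DMM mouse 3 lay less than 1 normalised count below naive mouse 4. The means were 416 ± 91.9 and 285 ± 42.9 (SD, n = 4 each), with a log2 fold change of -0.55 (SE 0.18, 95% interval -0.90 to -0.19, adjusted p = 0.0158). The adjusted p passed and the size, a ratio of 0.685, fell short of 1.5-fold, so that Cdkn2c was not called. It was called without naive 3, without naive 4 and without DMM 3, with log2 fold changes of -0.62, -0.63 and -0.65. The adjusted p was above 0.05 without naive 1 (0.0585), naive 2 (0.0896), DMM 1 (0.0566) or DMM 2 (0.0696). Without DMM 4 it passed at 0.0455. Under total count scaling the log2 fold change was -0.38 (adjusted p = 0.0664). Cdkn2c lies at chr4:109660876-109667189 on the minus strand.

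Cdkn2a and Cdkn2b neighbour each other on chromosome 4, 11646 bases apart and both on the minus strand (Cdkn2a at chr4:89274471-89294653, Cdkn2b at chr4:89306299-89311039). Cdkn2a encodes p16INK4a and, in another reading frame from its upstream start, p19ARF, which binds MDM2 and not a CDK. The table holds 1 value per gene, so these products cannot be told apart in it. Cdkn2a had 3, 0, 0 and 4 estimated counts in naive mice 1 to 4 and 8, 5, 10 and 5 in DMM mice 1 to 4. It was detected in 2 of the 4 naive libraries and in all 4 DMM libraries. As normalised counts these were 2.64, 0, 0 and 4.54 against 6.63, 5.38, 8.23 and 4.51, so that naive mouse 4 lay a little above DMM mouse 4. A count of 0 allows up to 3 counts in a library. The log2 fold change was 1.75 with an SE of 0.95 and a 95% interval of -0.12 to 3.62, and a two-sided exact permutation test over the 70 assignments gave p = 0.0571. A difference in Cdkn2a was not detectable at this depth.

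Cdkn2b encodes p15INK4b, a target of TGF-beta signalling. It had 6, 2, 16 and 13 estimated counts in naive mice 1 to 4 and 17, 10, 23 and 8 in DMM mice 1 to 4. The groups overlapped: naive mice 1 and 2 lay below every DMM mouse, and naive mice 3 and 4 lay within the DMM range. The log2 fold change was 0.36 (SE 0.61, 95% interval -0.83 to 1.55), with an exact permutation p of 0.543. The interval spans changes past 1.5-fold in either direction.

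**Figure D2:**
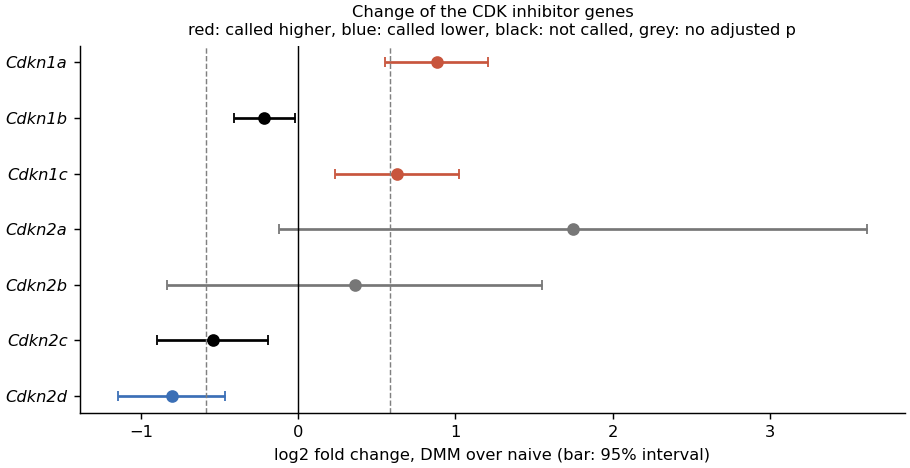
Log2 fold change of each member, DMM over naive, with its 95% interval (x axis, dashed lines at 1.5-fold). Cdkn1a (0.88) and Cdkn1c (0.62) lie to the right and Cdkn2d (-0.81) to the left of the dashed lines, and the intervals of Cdkn2a and Cdkn2b include 0.

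Levels of different members were compared per kb of exon, as normalised counts divided by the length of the gene's merged exons. In naive cartilage the order was Cdkn2d with 298 ± 64.1, Cdkn1b with 263 ± 22.7, Cdkn2c with 155 ± 34.2, Cdkn1c with 66.8 ± 13.1, Cdkn1a with 63.2 ± 12.7, Cdkn2b with 7.16 ± 5.08 and Cdkn2a with 1.53 ± 1.89 normalised counts per kb (SD, n = 4 each). Of these neighbours, Cdkn2d and Cdkn1b overlapped in their values, as did Cdkn1c and Cdkn1a, and Cdkn2b and Cdkn2a. In DMM cartilage the order was Cdkn1b with 227 ± 9.77, Cdkn2d with 170 ± 17.6, Cdkn1a with 116 ± 11.6, Cdkn2c with 106 ± 16.0, Cdkn1c with 102.6 ± 18.5, Cdkn2b with 9.17 ± 3.59 and Cdkn2a with 5.28 ± 1.38 per kb. There Cdkn1b and Cdkn2d were separate, whereas Cdkn1a, Cdkn2c and Cdkn1c overlapped, and so did Cdkn2b and Cdkn2a. Dividing by the longest transcript instead raised Cdkn1a in DMM cartilage to 198 ± 19.9 per kb, level with Cdkn2d at 188 ± 19.5.

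The sum of the 7 length-scaled levels was 855 ± 115 per kb in naive and 736 ± 41.9 per kb in DMM cartilage, and the ranges overlapped (730.4 to 1009 against 689 to 791). Its make-up differed between the groups. Cdkn1a held 5.60% to 9.66% of it in naive mice and 14.3% to 17.1% in DMM mice. The share of Cdkn1c was 6.64% to 8.83% against 10.9% to 15.3%, and that of Cdkn2d 30.1% to 37.3% against 21.3% to 25.7%. None of these 3 shares overlapped between the groups. They are parts of the same sum, so a smaller part of one member enlarges the others. The normalised counts of Cdkn1c themselves overlapped, and the separation of these shares is not a result apart from the changes above. The share of Cdkn1b was 28.4% to 32.6% against 27.8% to 33.4%, with overlap.

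**Figure D3:**
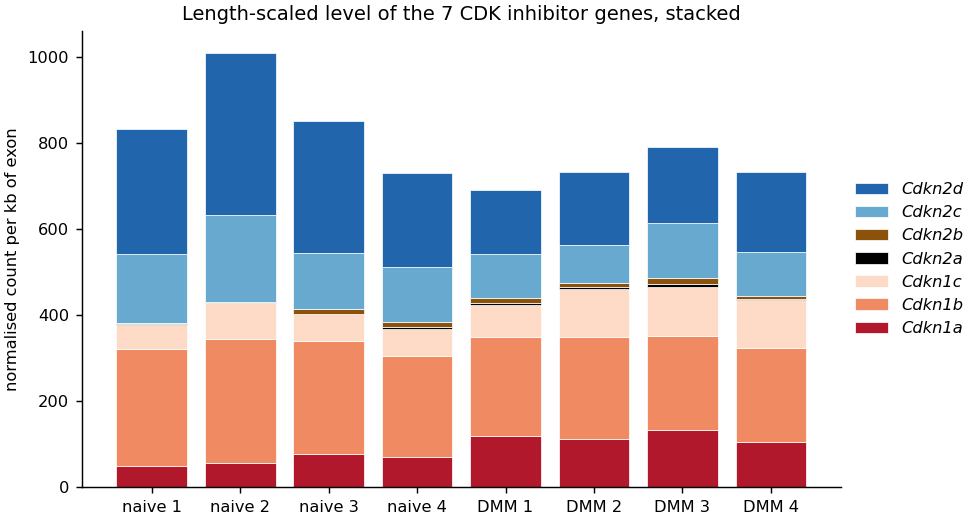
Length-scaled levels of the 7 members, stacked for each of the 8 mice (y axis, normalised counts per kb of exon, from 0). The Cdkn1a segment at the base is taller in all 4 DMM mice and the Cdkn2d segment at the top is taller in all 4 naive mice, while Cdkn2a and Cdkn2b are barely visible.

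Ratios between members within a library do not depend on the scaling of libraries. The ratio of Cdkn1a to Cdkn2d normalised counts was 0.378, 0.339, 0.568 and 0.724 in naive mice 1 to 4 and 1.81, 1.49, 1.66 and 1.25 in DMM mice 1 to 4. The ratio was higher in every DMM library than in any naive library, a difference of 1.68 on the log2 scale. This separation was fixed in advance, since both genes lay without overlap between the groups, in opposite directions. It restates their separate changes and adds no further result. These ratios are not scaled for length, and per kb of merged exons Cdkn2d lay above Cdkn1a in all 8 libraries. Per kb of the longest transcript, Cdkn2d lay below Cdkn1a in DMM mice 1 to 3 and above it in the other libraries. Set against Cdkn1b, Cdkn1a was 0.141 to 0.236 in naive and 0.361 to 0.466 in DMM mice (log2 difference 1.11). Cdkn1c over Cdkn1b (log2 difference 0.83) and Cdkn2d over Cdkn1b (-0.58) were likewise without overlap. Only Cdkn2c over Cdkn1b overlapped among these 5 ratios (-0.32). How often ratios of other gene pairs separate the groups was not computed.

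Marker genes of other cell types in the dissected tissue moved with the groups and are given beside these results. For comparison, 7.75% of all genes tested were called higher and 5.92% lower. All 10 chondrocyte markers were detected, and their summed share of estimated counts was 0.263% to 0.385% in naive and 0.605% to 1.22% in DMM libraries, with 4 of the 10 called higher and Col2a1 (type II collagen) at a log2 fold change of 1.41. Neutrophil lineage markers held 0.895% to 1.25% of naive counts and 0.421% to 0.884% of DMM counts, and 12 of 12 were called lower, among them S100a9 (log2 fold change -0.84). Erythroid markers held 1.07% to 1.80% against 0.594% to 1.26%, with 8 of 9 called lower. Of the megakaryocyte markers 5 of 6 were called lower, and of the osteoblast and osteocyte markers 8 of 9 were called higher, the latter list at 0.896% to 1.30% of naive and 2.55% to 3.15% of DMM counts. The most abundant gene of each further list was called for Hba-a2 (alpha globin, log2 fold change -1.11), Itga2b (a platelet integrin, -1.03) and Col1a1 (type I collagen, 1.23). It was not called for Ebf1 (B cell, 0.43), Mmp9 (osteoclast, 0.06), Csf1r (macrophage, 0.20), Pecam1 (endothelial, -0.03) and Prg4 (synovial fibroblast, -0.54), and Myh4 (skeletal muscle) had no adjusted p. Other genes of these lists were called, however: 4 of 7 synovial fibroblast markers, 2 of 6 endothelial markers and 1 of 7 osteoclast markers were higher and none was lower, while no B cell, macrophage or skeletal muscle marker was called. Prg4, also a superficial zone cartilage gene, made up most of the synovial fibroblast share. Its means were 55406 (naive) and 38199 (DMM) normalised counts, against 1400 and 2152.5 for Pdgfra, the next of that list. That share therefore does not stand for synovial cells alone. The shares of chondrocyte, neutrophil lineage, megakaryocyte, osteoblast and osteocyte, and endothelial markers each gave an exact permutation p of 0.0286, the smallest that 4 against 4 allows, and 0.0629 when adjusted over the 11 marker lists. The erythroid list and those of B cell, osteoclast, macrophage, skeletal muscle and synovial fibroblast markers gave unadjusted p-values of 0.0857 to 0.657, and no marker was at 0 in all libraries.

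Within the naive group, mouse 4 had both the lowest Cdkn2d value and the lowest neutrophil lineage share. Naive mouse 4 (346 normalised counts at a share of 0.895%) and DMM mouse 4 (296 at 0.884%) were close in both measures. Their erythroid marker shares lay further apart, at 1.07% and 0.648%. In a fit with the mean log2 level of the neutrophil lineage and erythroid markers as a covariate, the log2 fold change of Cdkn2d was -0.21 (adjusted p = 0.935), against -0.81 without it. Cdkn2c moved from -0.55 to 0.07 (adjusted p = 0.992), Cdkn1a from 0.88 to 0.79 (adjusted p = 0.355) and Cdkn1c from 0.62 to 1.11 (adjusted p = 0.130). No member was called in that fit, which called 147 genes in all, against 2429 in the fit without the covariate. The covariate itself was 12.37 to 13.04 in naive and 11.34 to 12.18 in DMM libraries without overlap, so that it and the group cannot be told apart. In naive mouse 4 the covariate was 12.37, against 11.92 in DMM mouse 4 and 12.18 in DMM mouse 3.

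**Figure D4:**
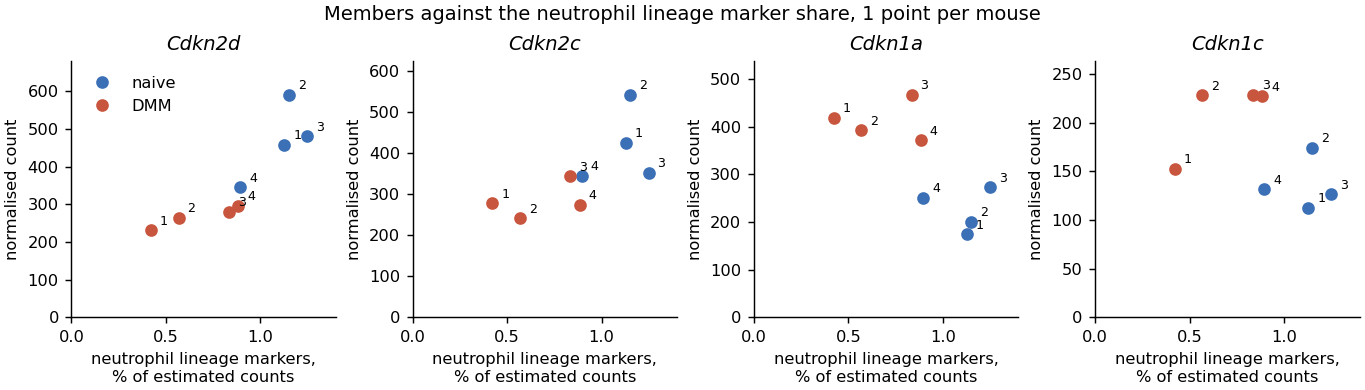
Normalised counts of 4 members (y axes, from 0) against the share of estimated counts held by neutrophil lineage markers (x axes, percent), with 1 numbered point per naive (blue) or DMM (red) mouse. Naive mouse 4 and DMM mouse 4 have shares of 0.895% and 0.884%, with 346 and 296 counts for Cdkn2d and 251 and 372 for Cdkn1a.

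Of 20 kinases, cyclins and their direct regulators, 9 were called lower in DMM cartilage and none higher, where 5.92% of all genes tested were called lower. The list had a median log2 fold change of -0.53 against -0.02 over all genes. Those with the smallest adjusted p were Cdk1, the mitotic kinase, which fell from 819 ± 157 to 419 ± 80.1 normalised counts (log2 fold change -0.96, adjusted p = 6.24e-06), Cdc25c, a phosphatase that activates it (-0.98, adjusted p = 1.78e-05), and Ccnb1, its cyclin B partner (-0.84, adjusted p = 4.42e-05). The other 6 were Ccne1, Ccne2, Ccna2, Ccnb2, Cdc25b and Pkmyt1. The direct targets of the INK4 proteins were not called: Cdk4 had a log2 fold change of -0.27 (adjusted p = 0.0675) and Cdk6 of -0.52 (adjusted p = 0.000255). The D-type cyclins that partner them were not called either, with Ccnd1 at 0.27 (adjusted p = 0.0847), Ccnd2 at 0.43 (adjusted p = 0.00722) and Ccnd3 at -0.49 (adjusted p = 0.0198). With total count scaling 6 of the 20 were called lower. That scaling called 489 genes lower in all, against 1052 with size factors.

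Downstream, 4 of 13 pocket protein and E2F genes were called lower (30.8%, against 5.92% of all genes) and none higher, with a median of -0.47. E2f8, an atypical repressor E2F, fell from 1768 ± 374 to 1004 ± 149 (log2 fold change -0.82, adjusted p = 5.49e-05). E2f1, an activator E2F, had a log2 fold change of -0.79 (adjusted p = 0.000557) and Tfdp2, a dimer partner of E2Fs, of -0.71 (adjusted p = 0.000852). E2f2 was the other. Rb1, which encodes the retinoblastoma protein, was at -0.30 (adjusted p = 0.0373) and was not called. Of 25 proliferation genes 23 were called lower (92.0%, against the same 5.92%) and none higher, with a median of -0.73. Mcm5, a subunit of the replicative helicase (-0.82, adjusted p = 2.43e-06), Tpx2, a spindle assembly factor (-0.82, adjusted p = 4.78e-06), and Aurkb, a mitotic kinase (-0.81, adjusted p = 1.02e-05), had the smallest adjusted p. Under total count scaling 2 of the 13 and 11 of the 25 were called lower, where 489 genes in all were lower, against 1052 with size factors. The genes called in these lists moved in the same direction as the neutrophil lineage and erythroid markers above. With the marker covariate none of the kinase, E2F or proliferation genes was called. That fit called 147 genes in all, against 2429 without the covariate, which did not overlap between the groups. Loss of a call there therefore cannot tell marker level and group apart.

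Among 23 regulators of the inhibitors, 3 were called higher and 1 lower, 17.4% against 13.7% of all genes, with a median near 0. Smad3, a TGF-beta signal transducer, rose from 699.5 ± 88.1 to 1049.5 ± 52.1 (log2 fold change 0.586, adjusted p = 2.14e-05). This lay at the threshold, 0.585 on the log2 scale. Id1, a repressor of basic helix-loop-helix factors, had 130.2, 157, 156 and 179 normalised counts in naive mice and 218, 282, 275 and 285 in DMM mice (0.77, adjusted p = 5.14e-05). Klf4 was the third. Leaving out 1 library at a time kept the call of Id1 in all 8 fits and those of Smad3 and Klf4 in 4 each. Dtl, which directs p21 to degradation, was lower, with a log2 fold change of -0.61 (adjusted p = 7.85e-05). This call was kept in 5 of those 8 fits and not made under total count scaling. Trp53, which encodes p53, was at -0.22 (adjusted p = 0.241), and Skp2, which directs p27 to degradation, at -0.20 (adjusted p = 0.408).

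Of 21 p53 targets other than Cdkn1a, 3 were called higher and 1 lower (19.0%, against 13.7% of all genes), and the median was -0.01. Eda2r, a tumour necrosis factor receptor superfamily member, had 6.16, 7.98, 7.49 and 12.5 normalised counts in naive mice and 24.1, 21.5, 27.2 and 25.3 in DMM mice (log2 fold change 1.54, adjusted p = 0.00313). Phlda3, an inhibitor of AKT, rose from 97.2 ± 20.7 to 156 ± 27.9 (0.69, adjusted p = 0.00884), and Plk2 was the third. The groups overlapped for Phlda3 and Plk2. Leaving out 1 library at a time kept the calls of Eda2r and Phlda3 in 5 of 8 fits each and that of Plk2 in 3. Gadd45a, a growth arrest gene, fell from 557 ± 36.2 to 370.1 ± 64.3 (-0.59, adjusted p = 0.000571). Its call was kept in 3 of those 8 fits and not made under total count scaling. Mdm2, the ubiquitin ligase of p53 and itself a p53 target, was at -0.07 (adjusted p = 0.734).

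Of 32 senescence markers and secretory genes, 27 had an adjusted p, of which 9 were called higher and 1 lower (37.0%, against 13.7% of all genes), with a median of 0.33. Mmp3, a matrix metalloproteinase, had 25.5, 23.9, 62.1 and 45.4 normalised counts in naive mice 1 to 4 and 615, 297, 606 and 252 in DMM mice 1 to 4 (log2 fold change 3.50, adjusted p = 7.84e-20). Igfbp7, an insulin-like growth factor binding protein, rose from 1649 ± 307 to 3805 ± 832 (1.21, adjusted p = 2.79e-09), and Timp2, a metalloproteinase inhibitor, from 2833 ± 783 to 6201 ± 1386 (1.13, adjusted p = 1.85e-06). Mmp13, Igfbp6, Timp1, Vegfa and Angptl4 were also called higher. Like Mmp3, Igfbp7 and Timp2, they are matrix and secreted genes made by chondrocytes and bone cells outside senescence as well. Whether senescence took part was not tested. Lmnb1, a nuclear lamin lost in senescent cells, fell from 4159 ± 777 to 2618 ± 175 (-0.67, adjusted p = 6.88e-05), together with the proliferation genes above. The Lmnb1 call was kept in 7 of 8 fits without 1 library and not made under total count scaling. The inflammatory genes Il6, Cxcl1, Cxcl2 and Ccl2 were too low for an adjusted p, with group means of 1.34 to 11.0 normalised counts. Il1a (-0.90, adjusted p = 0.0545) and Il1b (-0.46, adjusted p = 0.213) did not pass.

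**Figure D5:**
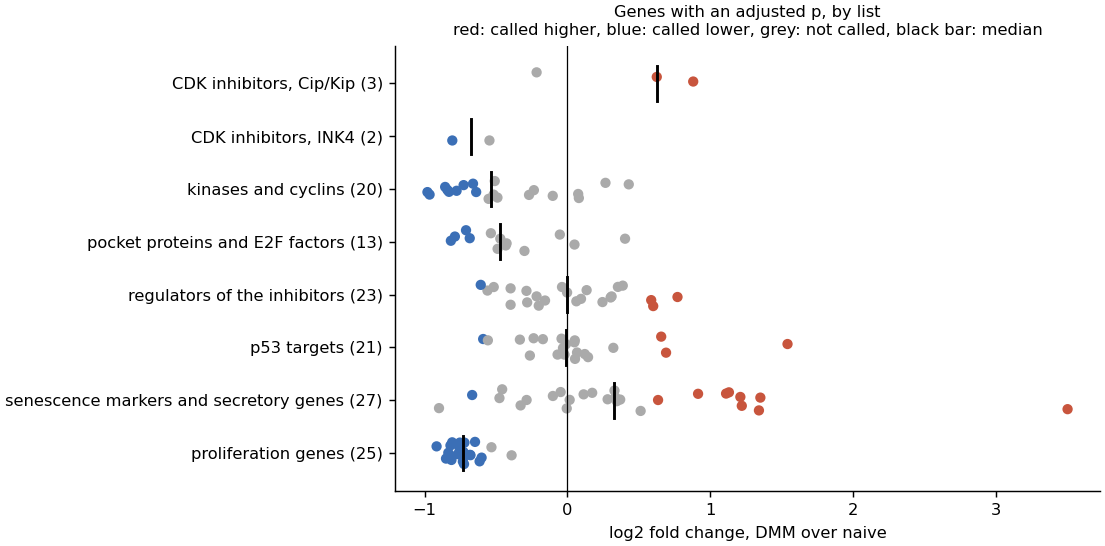
Log2 fold changes (x axis) of the genes with an adjusted p in each list (number in brackets), coloured by call, with the list median as a black bar. The proliferation genes lie to the left (median -0.73), the p53 targets around 0 (median -0.01), and the senescence and secretory genes are spread from -0.90 to 3.50.

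Genes with patterns most like a member were ranked by the root mean square difference of log2(normalised count + 1), centred on its mean over the 8 libraries, among the 11017 genes that averaged 100 or more normalised counts. Closest to Cdkn1a were Dpysl3 (0.0847), Npdc1 (0.0932) and Adamts2 (0.0947), the last of which encodes a procollagen peptidase. Nearest to Cdkn2d were Spn (0.0764), which encodes the leukocyte surface protein CD43, Treml2 (0.0842) and Parvg (0.0845). The genes nearest Cdkn2c were Npm3 (0.0600), Ifrd2 (0.0617) and Smox (0.0663), and those nearest Cdkn1b were Emg1 (0.0210), Elf1 (0.0232) and Ddx23 (0.0334). Cdkn1c had the least close matches, Prr5 (0.155), Ddr1 (0.162) and Klf4 (0.165). In Ddr1, a collagen receptor, DMM mouse 1 had 165 normalised counts and the other DMM mice 171.5 to 234.

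Within 100 kb of the members 52 other genes are annotated, and 28 of them had an adjusted p. Only Rab44, 13418 bases from Cdkn1a on the same strand, was called, whereas 13.7% of all genes tested were called. It was lower in DMM cartilage (1149 ± 183 to 728.5 ± 139 normalised counts, log2 fold change -0.66, adjusted p = 0.00102), opposite to Cdkn1a. Trp53cor1, also named lincRNA-p21 and lying 11797 bases from Cdkn1a on the other strand, was too low for an adjusted p and is named after its values were seen. Its normalised counts were 3.52, 1.33, 5.35 and 1.13 in naive mice and 16.6, 15.1, 12.3 and 9.03 in DMM mice, without overlap (log2 fold change 2.18, SE 0.68). Lockd, a non-coding gene 3579 bases from Cdkn1b, was likewise chosen after its values were seen. It had 263 to 369 normalised counts in naive and 167 to 242 in DMM mice (log2 fold change -0.58, adjusted p = 0.00627), just short of the 1.5-fold threshold.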

How the data were processed

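RNA-seq libraries of medial knee cartilage from 4 naive and 4 DMM mice were analysed. The deposited table holds estimated counts per gene, for which the authors trimmed the reads, pseudo-aligned them (Kallisto) and collapsed transcript estimates per gene (tximport). A read that fits more than 1 transcript is divided, and 39.2% of the values were not whole. They were rounded to whole numbers before testing, and tximport length offsets were not used. The methods of the study name GRCm38 with a later Ensembl release of another assembly, the submitters' processing notes list GRCh38, and the labels and methods name different library kits. These differences were not resolved, and strand handling was not stated. Coordinates are from GENCODE vM21 (GRCm38), looked up by gene identifier.

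Differences were tested with DESeq2 1.42.0 in R 4.3.3, the tool of the study (Wald test with its default size factors and filters, without shrinkage of log2 fold changes, all 8 libraries, no covariates). A gene was called at an adjusted p of 0.05 or less and 1.5-fold or more. Single values were compared by a two-sided exact permutation test over 70 assignments. Alternatives used edgeR 4.0.16, limma 3.58.1, other scalings and filters, a null of 1.5-fold, a replicate block, a marker covariate and leaving out each library. Total counts of 12479443 to 16548002 per library limit the precision of genes at a few counts, and intervals of the fits cover the spread between mice. Each library is a separate mouse by its label, and no 2 libraries of a group agreed within sampling noise (lowest chi-square per degree of freedom 8.09).

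Genes are named by rule: every member, in each pathway list the 3 called genes with the smallest adjusted p, the 3 genes most like each member with an adjusted p, called genes within 100 kb, and the gene with the largest mean count in each marker list. Further genes of the lists are given for context, with their values. The members and lists were chosen with earlier results of these data known. In the senescence list 1 gene enters the counts and is not reported here.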

Additional observations from a re-analysis of the deposited data

Results flagged for a closer look

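Among groups of 4 values for named genes, marker shares and library measures, 108 were examined for a single value far from the others, and 8 were set apart by Dixon's criterion, where chance gives about 5.4 (1 in 20). For Cdkn1c, DMM mouse 1 had 152.6 normalised counts against 227.4 to 228.9 in the other DMM mice. Without this library the log2 fold change of Cdkn1c was 0.75. The same mouse was lowest for Id1, with 218.1 against 275 to 285.2 normalised counts, and highest among DMM mice for skeletal muscle markers, with 0.00669% of counts against 0.000428% to 0.00109%. DMM mouse 3 was highest for Gadd45a, with 465.9 against 328.5 to 345 normalised counts, and for erythroid markers, with 1.256% against 0.594% to 0.648%. Naive mouse 2 had the lowest endothelial marker share, 0.0207% against 0.0279% to 0.0281%, and the fewest genes with at least 10 counts, 16770 against 18276 to 18467. In naive mouse 3 skeletal muscle markers held 0.00289% against 0.000495% to 0.000831%.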

How the results depend on the processing

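Cdkn1a, Cdkn1c and Cdkn2d were called with edgeR, limma-voom, TMM factors, total count scaling, no independent filtering, filtering before the test and the replicate block (3 members each), and leaving out 1 library gave 2 to 4. Leaving out 1 library gave log2 fold changes of 0.542 to 0.762 for Cdkn1c and -0.65 to -0.395 for Cdkn2c, and 1 to 6 calls among the regulators and 1 to 4 among the p53 targets. Without a fold threshold Cdkn2c was called (-0.546), and the calls rose to 4010 genes, 1989 of them lower, with 14 kinases and cyclins, 10 pocket protein and E2F genes and 9 regulators. Total count scaling gave 489 genes lower, 2 pocket protein and E2F genes and 11 proliferation genes. Testing against a null of 1.5-fold called 94 genes (80 higher, 14 lower) and 1 senescence or secretory gene, but 0 members and 0 genes of the other 5 lists, with unchanged log2 fold changes of 0.88 for Cdkn1a, 0.625 for Cdkn1c and -0.806 for Cdkn2d. The covariate of neutrophil lineage and erythroid markers called 147 genes (114 higher, 33 lower), 0 members, 1 senescence or secretory gene and 0 genes of the other 5 lists. In that fit Cdkn1a was at 0.79, Cdkn1c at 1.11 and Cdkn2d at -0.21, and the sign turned for Cdkn2b (-0.151), Cdkn2c (0.0674), Npm3 (0.0558) and Smox (0.112). The cause of these moves was not tested. edgeR and the replicate block each called 2 of the p53 targets. Samples of a shared replicate number deviated together weakly or not at all (correlations of 0.0456, 0.0764, -0.159 and 0.0962 over 11039 genes), so the numbers were not taken as pairs, and with the replicate block as a term 2081 genes were called and Cdkn2c had an adjusted p of 0.0668. Depth limits Cdkn2a and Cdkn2b, which had at most 10 and 23 estimated counts in a library.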
